A study of Homo sapiens with 12 samples.

Results

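The genes described here are 30 genes of cholesterol synthesis, sterol uptake and storage, and the control of these processes by the sterol regulatory element-binding proteins (SREBPs). They were chosen by gene symbol from a table of 53361 gene rows, and each of the 30 symbols had a row. TMEM97 had more than 1 row, and the row with the higher mean over the 12 libraries was used. The cells were hTERT-RPE1, which descend from human retinal pigment epithelium and were made immortal by telomerase. Polyadenylated RNA was sequenced from 4 groups of 3 libraries each. Control cells were untreated. Reversine, an inhibitor of the spindle checkpoint kinase MPS1 that causes chromosome missegregation, was given at 0.5 µM for 24 h, and the cells were harvested 48 h after its removal. Bafilomycin A1 (BafA1), an inhibitor of the vacuolar proton pump that blocks acidification of lysosomes, was given at 0.1 µM for 6 h. MG132, a proteasome inhibitor, was given at 1 µM for 24 h. The cells grew in medium with serum, which supplies lipoprotein cholesterol. No vehicle is named for the controls, which are shared by the 3 treatments. All groups come from this single line, and the 3 drugs differ in dose. BafA1 was given for a shorter time than the other two, and only reversine was followed by a time without drug, so differences between treatments cannot be told apart from differences in timing.

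Cells build cholesterol from acetyl-CoA through mevalonate, farnesyl diphosphate, squalene and lanosterol, and they also take it up in lipoproteins that are broken down in lysosomes. SREBP-1 and SREBP-2 are made as membrane proteins of the endoplasmic reticulum, where SCAP binds them and the INSIG proteins hold SCAP back while sterol is plentiful. When sterol in that membrane falls, SCAP carries the SREBPs to the Golgi, where the proteases encoded by MBTPS1 and MBTPS2 release the part that enters the nucleus and switches on genes of synthesis and uptake.

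SREBPs bind sterol regulatory elements (SREs) in promoters, often beside CCAAT boxes bound by NF-Y and GC boxes bound by Sp1. The 200 bases before the start site of 6 genes are shown because they hold the spread of these elements among the genes: FDPS, HSD17B7 and SREBF2 with an SRE-like match, NSDHL with several CCAAT boxes, INSIG1, the gene with the lowest adjusted p after BafA1, with 1 CCAAT box, and MBTPS2 with no match. Capitals mark matches to the motif CCAAT, read on both strands, and to the SRE-like motif TCACNCNAC. Sequences are 5′ to 3′ on the plus strand, from the RefSeq promoters of GRCh38.p14, at chr1:155308666-155308865, chr1:162790502-162790701, chr22:41832905-41833104, chrX:152830863-152831062, chr7:155297678-155297877 and chrX:21839417-21839616 in the order printed.
FDPS: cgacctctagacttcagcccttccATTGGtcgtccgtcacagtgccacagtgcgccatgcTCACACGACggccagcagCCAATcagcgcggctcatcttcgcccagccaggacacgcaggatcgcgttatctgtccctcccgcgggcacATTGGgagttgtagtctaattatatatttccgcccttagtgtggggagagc
HSD17B7: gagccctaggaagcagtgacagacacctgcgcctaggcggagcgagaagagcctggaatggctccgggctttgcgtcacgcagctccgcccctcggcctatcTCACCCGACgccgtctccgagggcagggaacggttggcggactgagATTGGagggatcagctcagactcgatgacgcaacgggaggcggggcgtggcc
SREBF2: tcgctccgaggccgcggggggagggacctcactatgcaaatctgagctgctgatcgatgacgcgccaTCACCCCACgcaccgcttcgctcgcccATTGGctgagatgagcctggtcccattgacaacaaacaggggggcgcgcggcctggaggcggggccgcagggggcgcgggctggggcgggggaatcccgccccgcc
NSDHL: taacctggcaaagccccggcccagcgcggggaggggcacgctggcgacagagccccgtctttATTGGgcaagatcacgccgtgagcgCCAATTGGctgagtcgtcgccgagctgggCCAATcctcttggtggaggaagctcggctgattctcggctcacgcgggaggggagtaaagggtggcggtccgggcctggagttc
INSIG1: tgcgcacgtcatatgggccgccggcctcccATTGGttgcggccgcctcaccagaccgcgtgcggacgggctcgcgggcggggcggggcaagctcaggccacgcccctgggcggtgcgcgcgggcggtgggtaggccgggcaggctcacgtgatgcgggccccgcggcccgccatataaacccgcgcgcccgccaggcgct
MBTPS2: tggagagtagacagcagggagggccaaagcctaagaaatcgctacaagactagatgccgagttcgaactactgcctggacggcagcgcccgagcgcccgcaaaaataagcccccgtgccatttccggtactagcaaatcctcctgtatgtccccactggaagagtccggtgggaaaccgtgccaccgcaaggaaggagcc

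In RefSeq promoters that run from 250 bases before to 50 bases after a start site, 35 windows belonged to 27 of the 30 genes. The motifs were chosen after values had been seen. The SRE-like motif began 140 bases before the start site in FDPS, 98 bases before it in HSD17B7 and 133 bases before it in SREBF2, and the last of these also matched the stricter form TCACNCCAC. These 3 windows were 8.6% of the 35, against 2.5% of all 35116 windows for the SRE-like form. A CCAAT match was present in 57.1% of the windows, from 18 genes, against 34.6% of all windows, and 37.1% of the 35 held 2 or more against 10.8% of all. The GC box GGGCGG was present in 85.7%, against 45% of all windows. In NSDHL a match on one strand overlaps a match on the other, and each was counted. Genes with no CCAAT match in any of their windows were CYP51A1, VLDLR, LPIN1, SREBF1, PMVK, SCAP, INSIG2, MBTPS1 and MBTPS2. A match describes these letters only.

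Values are FPKM, fragments scaled to transcript length and library size, as deposited, and read counts per library are not known from them. Differences were computed on log2(FPKM + 1), which understates the change of genes with low values, and tested with limma over 30712 rows that reached 1 FPKM in at least 3 libraries. A gene is said to have risen or fallen where its Benjamini-Hochberg adjusted p over all these rows was under 0.05. Whether a group's 3 libraries are separate cultures is not stated, and the p-values therefore reflect only how far these libraries spread, which may be technical. In bulk RNA, a change in the share of cells that express a gene cannot be told apart from a change per cell. The 10 highest rows of a library held 42.9% of all FPKM in BafA1 library 2 and 9.3% to 23.2% in the others. Among transcripts over 500 nt, values fell with rising GC content in reversine library 1, BafA1 library 3 and MG132 libraries 2 and 3, by 0.08 to 0.43 log2 units per 10 percentage points of GC, and rose in the other 8 by 0.07 to 0.19. The first 4, none of them a control and 2 of them from MG132, are called GC-shifted below. Over all rows, values rose most steeply with GC in control library 3, by 0.56 log2 units per 10 percentage points. Rows at 0 FPKM numbered 9118 in control library 3, 10150 and 9689 in MG132 libraries 2 and 3, and 889 to 4240 in the others. The part of this in the results was not tested beyond refits without single libraries. Of 11 retinal pigment epithelium markers, KRT8 and KRT18 (261.8 to 932.7 and 183.0 to 629.7 FPKM), MITF and OTX2 (9.29 to 20.3 and 10.1 to 17.3 FPKM) were present, while RPE65 (0.04 to 0.06 FPKM), TTR and TYR lay below 1 FPKM in all 12 libraries. RLBP1, BEST1, PMEL and TYRP1 ranged from 0.86 to 6.52 FPKM. The 11 markers summed to 1240 to 1401 FPKM in control libraries, 1300.4 to 1574 in reversine libraries, 1148 to 1275 in BafA1 libraries and 476 to 731 in MG132 libraries, where KRT8 and KRT18 fell by 1.29 and 1.14 log2 units (limma adjusted p = 0.00427 and 1.72e-04). The part of that shift in the MG132 results was not tested. Of the markers of blood, other epithelia, neurons, endothelium and liver, MAP2 alone passed in a comparison with control, higher by 0.77 after MG132 (limma adjusted p = 0.0172). MAP2 and RBFOX3, both neuron markers, measured 6.66 to 14.6 and 4.29 to 15.8 FPKM over the 12 libraries, near the levels of MITF and OTX2. The summed markers of liver, a tissue of high sterol turnover, ranged from 5.04 to 7.70 FPKM over the control, reversine and BafA1 libraries and from 6.39 to 17.8 over the MG132 libraries, with CYP7A1 at 0.03 to 0.07 throughout.

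All 30 genes passed the filter, and the lowest 12-library mean among them was 8.59 FPKM. The genes were chosen with earlier results of these data known, so the shares of all rows beside their counts are no independent test. After BafA1, 11 of the 30 genes rose, with the largest differences in HMGCS1, INSIG1 and IDI1, and none fell. Over all rows tested, 0.202% rose and 0.0619% fell. The 3 BafA1 libraries lay above all 3 controls for 25 of the 30 genes and below them for 1 (PMVK), against 15.7% and 7.42% of all rows. The median difference was 1.25 log2 units over the 30 genes and 0.14 over all rows. After MG132, 3 of the 30 genes rose (HMGCS1, IDI1 and STARD4) and 9 fell, with the largest differences in EBP, MVK and PMVK. Of all rows, 7.14% rose and 7.67% fell after MG132. The share of the 30 genes that rose was thus near that of all rows. The MG132 libraries did not overlap the controls for 8 genes that lay higher and 12 that lay lower, against 20.3% and 13.5% of all rows. The median was −0.12 over the 30 genes and 0.04 over all rows. After reversine, TM7SF2 rose and EBP fell, against 0.801% and 1.29% of all rows. Groups did not overlap for 9 genes that lay higher and 6 that lay lower after reversine, against 9.97% and 10.1% of all rows, and the median was 0.08 over the 30 genes and 0.09 over all rows.

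**Figure D1:**
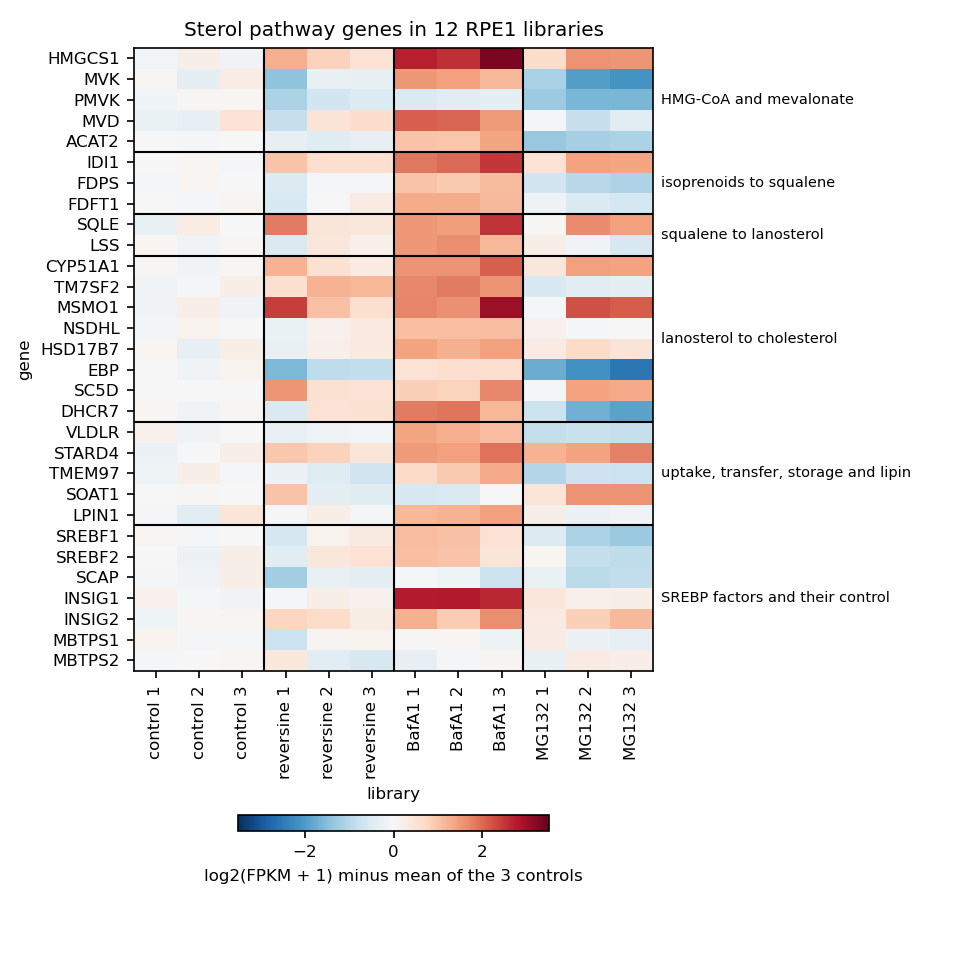
Each row is a gene, in pathway order, and each column a library; colour gives log2(FPKM + 1) minus the mean of the 3 controls, red higher and blue lower. The 3 BafA1 columns are red for 25 of 30 genes, while MG132 holds both colours, from STARD4 (1.46 in the group mean) to EBP (−2.13).

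The first enzymes make HMG-CoA and turn it into activated isoprene units. HMGCS1, the cytosolic synthase that makes HMG-CoA, measured 14.3, 17.9 and 14.1 FPKM in control and 106, 95.4 and 160.0 after BafA1. It rose by 2.86 ± 0.32 (SE) log2 units in limma's test with Benjamini-Hochberg adjustment (adjusted p = 0.00922), a 7.81-fold difference of the group means. All 3 BafA1 libraries lay above every other library, and the call was lost in 4 of 15 alternatives, with adjusted p up to 0.0696: without control library 1 or 3, without BafA1 library 1, and with only these 2 groups. After MG132 it measured 24.1, 48.0 and 46.7 FPKM and rose by 1.25 ± 0.32 (limma adjusted p = 0.0281). Without the 4 GC-shifted libraries, which left only library 1 of MG132, the difference was 0.62 and the call was lost. After reversine its values of 38.6, 27.4 and 22.1 FPKM also lay above control, with a difference of 0.86 that did not pass (limma adjusted p = 0.288).

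ACAT2, the cytosolic thiolase that joins acetyl-CoA units before HMGCS1 acts, moved in opposite directions after the BafA1 and MG132 treatments. Its levels were 39.5, 38.0 and 39.2 FPKM in control, 78.4, 77.9 and 102.9 after BafA1, and 14.95, 16.9 and 17.5 after MG132. None of these 3 groups overlapped another. It rose by 1.12 ± 0.14 log2 units after BafA1 (limma adjusted p = 0.0151) and fell by 1.196 ± 0.14 after MG132 (limma adjusted p = 5.83e-04), and the MG132 call held in all 15 alternative analyses. The BafA1 call was lost in 9 of the 15, with adjusted p up to 0.133. After reversine it measured 31.9, 28.9 and 31.9 FPKM, each below the lowest control, with a difference of −0.32 that did not pass (limma adjusted p = 0.398).

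The 3 enzymes that turn mevalonate into isopentenyl diphosphate did not move as a block. MVK, mevalonate kinase, measured 74.9, 56.4 and 85.3 FPKM in control and 31.6, 17.95 and 15.9 after MG132, and fell by 1.72 ± 0.35 (limma adjusted p = 0.0107). Without the 4 GC-shifted libraries it differed by −1.14 on the single MG132 library left, and the call was lost. After BafA1 its 205, 194 and 161 FPKM lay above all controls, but the difference of 1.37 did not pass (limma adjusted p = 0.285). PMVK, which adds the next phosphate, measured 22.2, 25.2 and 25.7 FPKM in control and 9.45, 7.42 and 7.29 after MG132, a fall of 1.49 ± 0.20 (limma adjusted p = 0.00130) that held in all 15 alternatives. PMVK was also the only one of the 30 genes whose BafA1 libraries, at 16.8, 18.1 and 19.5 FPKM, all lay below the controls (difference −0.41, limma adjusted p = 0.529). MVD, the decarboxylase, stood at 394, 379 and 259 FPKM after BafA1 against 77.1, 74.5 and 130.3 in control, with no overlap and a difference of 1.88 that did not pass (limma adjusted p = 0.15), and it overlapped control after MG132.

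IDI1, FDPS and FDFT1 carry isoprene units to squalene, and all 3 rose after BafA1. IDI1, the isomerase, measured 20.7, 22.0 and 20.4 FPKM in control, 78.3, 86.2 and 121.8 after BafA1, and 29.99, 57.5 and 56.5 after MG132. It rose by 2.10 ± 0.27 log2 units after BafA1 (limma adjusted p = 0.0169) and by 1.09 ± 0.27 after MG132 (limma adjusted p = 0.0248). MG132 library 1 lay close to control while libraries 2 and 3 were far above it. Without the 4 GC-shifted libraries the MG132 difference was 0.49, on MG132 library 1 alone, and the call was lost. FDPS, which makes farnesyl diphosphate and whose promoter above holds an SRE-like match beside CCAAT boxes, measured 216, 229 and 218 FPKM in control, 439, 418 and 474 after BafA1, and 139, 112 and 105 after MG132. It rose by 1.00 ± 0.14 after BafA1 (limma adjusted p = 0.0242) and fell by 0.91 ± 0.14 after MG132 (limma adjusted p = 0.00283). The 3 groups did not overlap. The FDPS call after BafA1 was lost in 8 of 15 alternatives and the call after MG132 in 1. FDFT1, squalene synthase, had the highest mean FPKM of the 30 genes in BafA1-treated cells, at 634, 643 and 569 FPKM against 254, 246 and 276 in control, and rose by 1.25 ± 0.19 (limma adjusted p = 0.0396). Its MG132 libraries, at 228, 182 and 168 FPKM, lay below all controls without passing (difference −0.44, limma adjusted p = 0.118). The BafA1 calls of IDI1 and FDFT1 were lost in 7 and 9 of 15 alternatives, and those of all 3 genes on leaving out any 1 of the 6 libraries, with adjusted p up to 0.424 for FDPS.

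SQLE and LSS, squalene epoxidase and lanosterol synthase, did not pass in any comparison with control. SQLE lay above control in all 3 BafA1 libraries, at 26.0, 24.7 and 53.4 FPKM against 6.82, 10.1 and 8.46, and its wide spread went with a difference of 1.84 and an adjusted p of 0.393 in limma. Reversine library 1 (31.9 FPKM) and MG132 libraries 2 and 3 (28.4 and 24.5 FPKM) were high for SQLE, while the other libraries of those groups measured 8.55 to 11.5. LSS measured 193, 207 and 152 FPKM after BafA1 against 70.6, 61.3 and 69.6 in control, a difference of 1.43 that did not pass (limma adjusted p = 0.0896).

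Of 8 genes that convert lanosterol to cholesterol, 3 rose after BafA1 (TM7SF2, HSD17B7 and NSDHL), and all 8 lay above the controls without overlap. TM7SF2, a sterol C14 reductase, measured 13.2, 13.5 and 16.6 FPKM in control, 21.9, 34.6 and 33.6 after reversine, 48.3, 53.4 and 44.3 after BafA1, and 9.66, 10.7 and 11.2 after MG132. The 4 groups did not overlap. It rose by 0.98 ± 0.20 after reversine (limma adjusted p = 0.0390) and by 1.69 ± 0.20 after BafA1 (limma adjusted p = 0.0118), and after MG132 its difference of −0.42 did not pass (adjusted p = 0.141). The BafA1 call was lost in 7 of 15 alternatives, with adjusted p up to 0.0909. The reversine call was lost in 8 of 15 alternatives, among them leaving out control library 1, 2 or 3 or reversine library 2 or 3, with adjusted p up to 0.259.

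EBP, the sterol isomerase named for binding emopamil, separated all 4 groups as well. It measured 91.7, 84.2 and 99.6 FPKM in control, 30.1, 49.4 and 50.0 after reversine, 131, 138.0 and 138.0 after BafA1, and 26.6, 20.2 and 15.1 after MG132, and no group overlapped another. EBP fell by 2.13 ± 0.23 log2 units after MG132 (limma adjusted p = 4.25e-04), to 0.225 of the control mean, and that call held in all 15 alternatives. Without the 4 GC-shifted libraries, which left only library 1 of MG132, the fall was 1.74. After reversine EBP fell by 1.10 ± 0.23 (limma adjusted p = 0.0491), a call lost on leaving out any 1 of the 6 libraries and under 4 other settings, with median-ratio scaling giving an adjusted p of 0.135. After BafA1 its difference of 0.56 did not pass (limma adjusted p = 0.478).

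NSDHL and HSD17B7, which act in removing the C4 methyl groups of lanosterol, rose after BafA1 alone among the 3 comparisons with control, and whether the treatments differed was tested separately below. NSDHL measured 30.2, 35.1 and 32.1 FPKM in control and 67.8, 67.7 and 69.7 after BafA1, a narrow group whose difference was 1.06 ± 0.15 (limma adjusted p = 0.0301). HSD17B7 measured 16.4, 12.6 and 18.2 FPKM in control and 42.8, 38.3 and 43.9 after BafA1 (difference 1.36 ± 0.21, limma adjusted p = 0.0371). The BafA1 calls of NSDHL and HSD17B7 were each lost in 11 of 15 alternatives, among them leaving out any 1 of the 6 libraries, with adjusted p up to 0.246 and 0.180. The HSD17B7 copy HSD17B7P2 went from 1.47 to 2.16 FPKM in control to 5.75 to 7.32 after BafA1, and reads of the pair may have been split between them. MSMO1, the C4 methyl oxidase of the same step, differed by 2.10 after BafA1 without passing (limma adjusted p = 0.478). Its libraries spread widely: 40.2, 37.0 and 98.1 FPKM after BafA1, 66.4, 24.6 and 17.8 after reversine, and 11.1, 58.0 and 53.6 after MG132, against 10.5, 13.7 and 10.6 in control.

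DHCR7, which reduces 7-dehydrocholesterol in the last step of one branch, measured 133, 117 and 131 FPKM in control and 74.5, 38.7 and 33.9 after MG132. It fell by 1.44 ± 0.36 log2 units (limma adjusted p = 0.0271), with MG132 library 1 nearest to the controls. Without the 4 GC-shifted libraries it differed by −0.76, on that single MG132 library. After BafA1 its 453, 463 and 286 FPKM lay far above the controls, but the difference of 1.62 did not pass (limma adjusted p = 0.188). CYP51A1, the lanosterol demethylase, measured 55.9, 55.8 and 80.4 FPKM after BafA1 against 18.9, 16.7 and 19.0 in control (difference 1.74, limma adjusted p = 0.0969), and 24.0, 50.6 and 49.4 after MG132 (difference 1.07, adjusted p = 0.0579). SC5D, the desaturase before DHCR7, differed by 1.10 after BafA1 and 0.89 after MG132, with limma adjusted p of 0.478 and 0.166. In MG132 library 1 alone, which was not GC-shifted, CYP51A1 and SC5D differed from the control mean by 0.38 and −0.06.

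**Figure D2:**
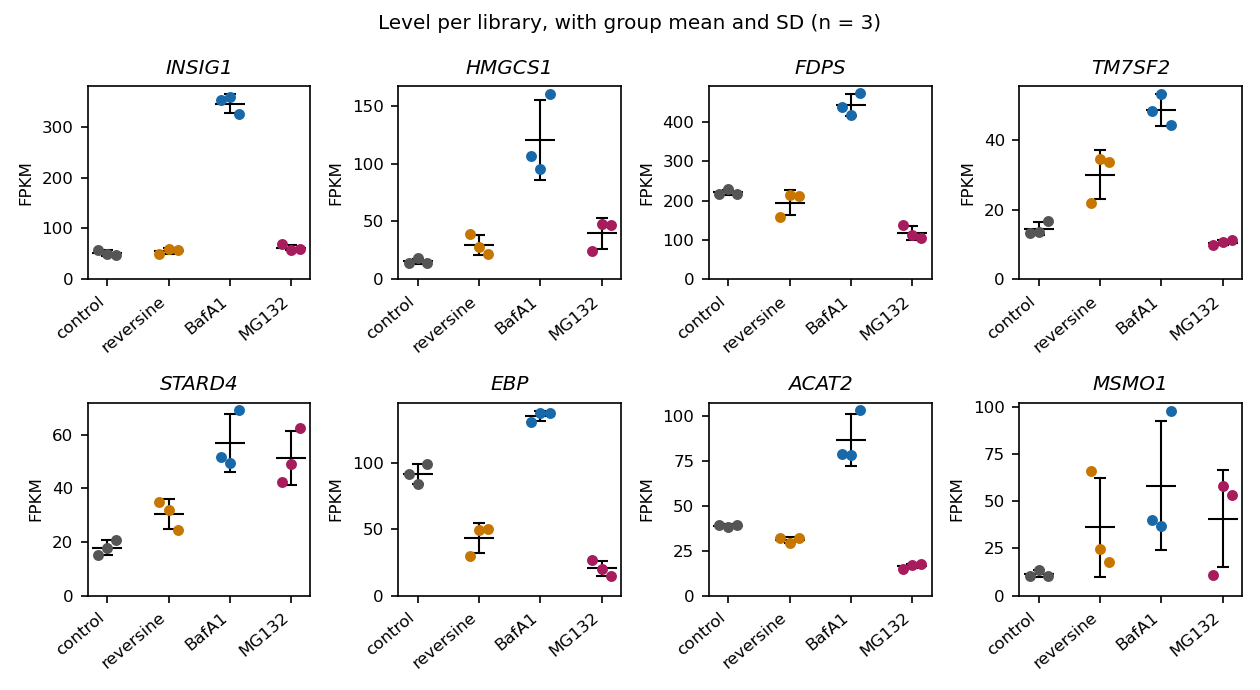
FPKM of 8 genes in each of the 12 libraries (points), with the group mean (bar) and SD (whiskers), n = 3 per group, on axes that start at 0. INSIG1 lies at 325 to 359.9 FPKM in the BafA1 libraries and at 47.4 to 68.3 in the others, the 4 groups of EBP do not overlap, and MSMO1 spreads within the 3 treated groups.

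Among genes of uptake, transfer and storage, STARD4 rose after 2 treatments and VLDLR moved in opposite directions. STARD4, a carrier that moves cholesterol between membranes, measured 15.2, 17.7 and 20.8 FPKM in control, 51.8, 49.6 and 69.3 after BafA1, and 42.3, 49.2 and 62.4 after MG132. It rose by 1.61 ± 0.22 after BafA1 (limma adjusted p = 0.0194) and by 1.46 ± 0.22 after MG132 (limma adjusted p = 0.00215). Its MG132 libraries all lay above the highest control, library 1 included. Its BafA1 call was lost in 8 of 15 alternatives, with adjusted p up to 0.133, among them leaving out any 1 of the 6 libraries. Its MG132 call was lost in 1, the refit without the 4 GC-shifted libraries, where the difference was 1.21 on the single MG132 library left. VLDLR, a lipoprotein receptor, measured 9.21, 7.39 and 8.04 FPKM in control, 23.0, 21.1 and 18.5 after BafA1, and 4.13, 4.38 and 4.29 after MG132. It rose by 1.25 ± 0.18 (limma adjusted p = 0.0247) after BafA1 and fell by 0.80 ± 0.18 (limma adjusted p = 0.0154) after MG132, and these 3 groups did not overlap. The BafA1 call of VLDLR was lost in 11 of 15 alternatives, among them leaving out any 1 of the 6 libraries, and the MG132 call in 4, with adjusted p up to 0.313 and 0.107.

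TMEM97, the sigma-2 receptor, measured 8.20, 10.8 and 8.68 FPKM in control, 15.3, 18.2 and 24.8 after BafA1, and 3.99, 5.15 and 5.04 after MG132. Its fall of 0.84 ± 0.24 after MG132 passed narrowly (limma adjusted p = 0.0468), and its second row gave −0.80 with an adjusted p of 0.0349. The BafA1 difference of 0.98 did not pass (limma adjusted p = 0.257). SOAT1, which esterifies cholesterol for storage in droplets, overlapped control after BafA1 and measured 24.0, 54.6 and 54.0 FPKM after MG132 against 17.3, 18.3 and 17.3 in control (difference 1.19, limma adjusted p = 0.0874). In MG132 library 1 alone, which was not GC-shifted, the SOAT1 difference from the control mean was 0.42. LPIN1, a phosphatidate phosphatase whose gene is an SREBP target, measured 98.1, 102.0 and 117 FPKM after BafA1 against 41.6, 33.0 and 58.3 in control, a difference of 1.27 at the edge of the threshold (limma adjusted p = 0.0522).

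INSIG1 was the member of the control machinery that stood out. This SREBP target, whose product retains SCAP in the endoplasmic reticulum, measured 57.7, 50.0 and 47.4 FPKM in control, 354, 359.9 and 325 after BafA1, 49.7, 59.7 and 56.9 after reversine, and 68.3, 57.9 and 59.7 after MG132. The BafA1 libraries lay far above every other library, with a difference of 2.72 ± 0.12 log2 units (limma adjusted p = 5.2e-05), 6.70-fold in group means. The call held in all 15 alternatives. Reversine overlapped control, and the MG132 difference was 0.26 (limma adjusted p = 0.132).

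INSIG2, the relative of INSIG1 that also binds SCAP, measured 8.54, 10.2 and 10.2 FPKM in control and 24.1, 18.6 and 31.9 after BafA1, with no overlap and a difference of 1.25 that did not pass (limma adjusted p = 0.18). After reversine it measured 16.8, 15.6 and 11.8 FPKM (difference 0.55, limma adjusted p = 0.439) and after MG132 11.9, 17.8 and 22.4 (difference 0.74, adjusted p = 0.0938). Both treatments left it above the highest control in every library without a call.

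SREBF1 and SREBF2, which encode the SREBPs, had their highest group mean after BafA1 and their lowest after MG132. SREBF1 measured 106, 96.9 and 101 FPKM in control, 216, 208 and 145 after BafA1, 72.6, 46.1 and 40.8 after MG132, and 67.3, 110.3 and 126 after reversine. Its fall of 0.96 ± 0.28 after MG132 passed narrowly (limma adjusted p = 0.0489) and was lost in 10 of 15 alternatives. SREBF2, whose promoter above holds the strict SRE match, measured 68.1, 58.9 and 78.7 FPKM in control, 142, 137 and 91.3 after BafA1, 71.3, 38.0 and 36.7 after MG132, and 53.0, 90.1 and 97.1 after reversine. Neither gene passed after BafA1, where the differences were 0.88 (limma adjusted p = 0.472) and 0.82 (adjusted p = 0.478) although each BafA1 library lay above every control.

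SCAP and the 2 protease genes did not pass in any comparison with control. SCAP measured 52.5, 51.3 and 63.5 FPKM in control, 52.6, 49.7 and 32.9 after BafA1, 23.3, 46.0 and 44.2 after reversine, and 47.4, 28.2 and 29.98 after MG132. Its reversine and MG132 libraries lay below the lowest control, with differences of −0.60 and −0.68 (limma adjusted p = 0.439 and 0.128). MBTPS1 and MBTPS2 overlapped control after all 3 treatments, with differences between −0.20 and 0.08, and the 95% intervals after BafA1 ran from −0.58 to 0.53 for MBTPS1 and from −0.71 to 0.56 for MBTPS2.

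**Figure D3:**
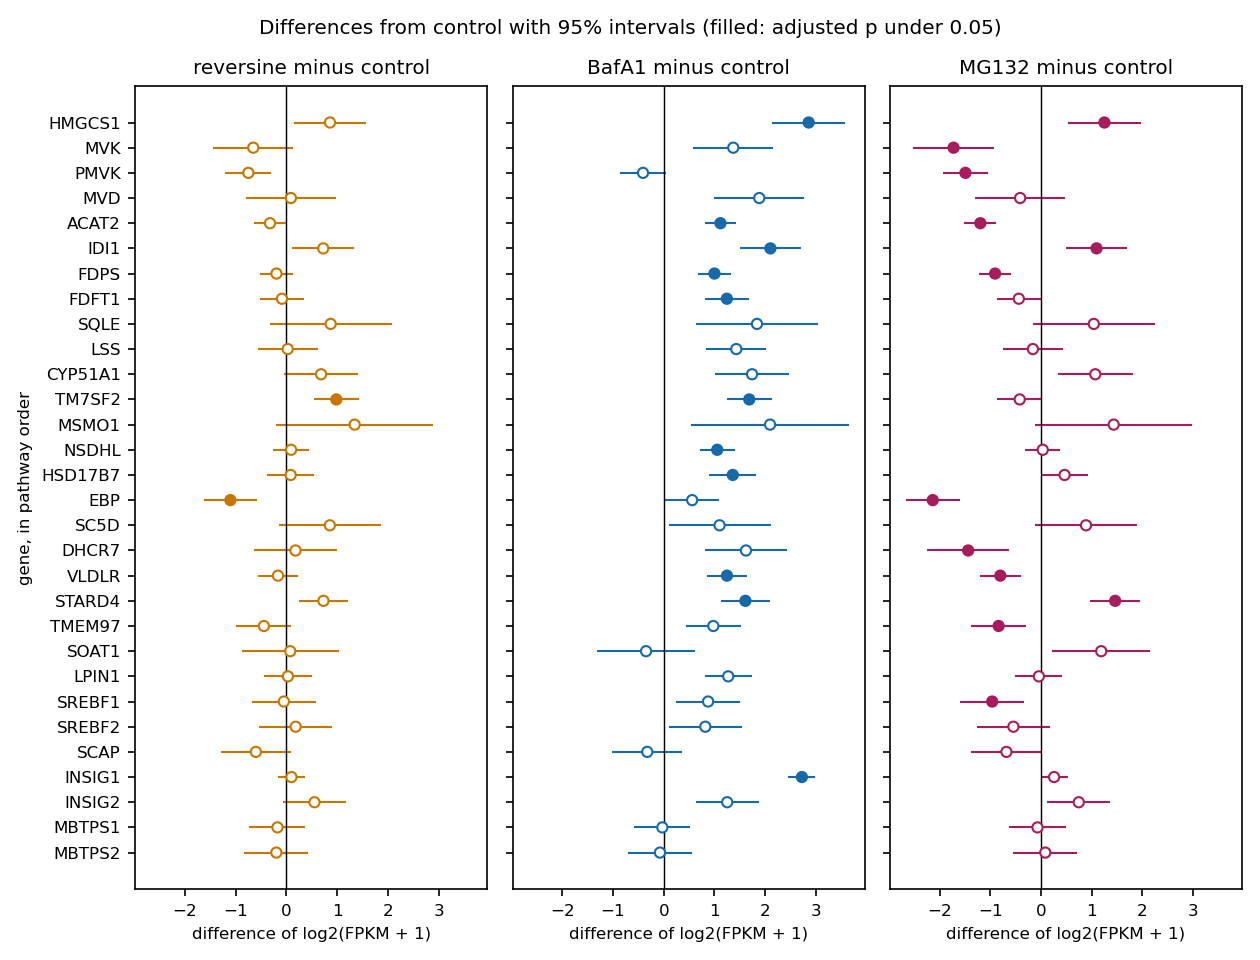
Difference of each treatment from control in log2(FPKM + 1), with its 95% interval from limma, genes in pathway order; filled points passed the adjusted threshold of 0.05. BafA1 has 11 filled points, all above 0, MG132 3 above and 9 below, and reversine 1 on each side.

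The split after MG132 went with the GC content of the transcripts within the 2 libraries whose values fall with GC over the whole table. Over the 29 genes with a GC value, the correlation across genes of GC content with the difference from the control mean was r = −0.83 in MG132 library 2 and −0.82 in library 3, −0.50 in MG132 library 1, and −0.79 in reversine library 1. It was −0.02 and 0.01 in BafA1 libraries 1 and 2, and −0.45 in BafA1 library 3. These points share a library and its GC trend, and genes are not replicates. For the 10 genes under 45% GC, which include HMGCS1, IDI1, STARD4, MSMO1 and SC5D, the median difference was 1.43 and 1.42 in MG132 libraries 2 and 3 and 0.33 in library 1. For the 10 genes at 55% GC or more, which include MVK, PMVK, EBP, DHCR7 and SREBF1, it was −1.04 and −1.08 in libraries 2 and 3 and −0.50 in library 1. ACAT2, VLDLR and FDPS, which also fell, lay between these classes at 48.3%, 48.2% and 54.3% GC. In MG132 libraries 1, 2 and 3, ACAT2 differed from the control mean by −1.32, −1.16 and −1.11. In the same order, VLDLR differed by −0.84, −0.77 and −0.80, and FDPS by −0.67, −0.98 and −1.07. In BafA1 libraries 1, 2 and 3, medians were 1.51, 1.44 and 2.00 for the low-GC genes and 1.30, 1.23 and 0.87 for the high-GC genes, so both classes lay above control in each.

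Without those 4 libraries, 5 of the 30 genes were still called after MG132 (ACAT2, EBP, FDPS, PMVK and DHCR7), all lower, on the single MG132 library left, whose spread is then taken from the other groups. HMGCS1, IDI1 and STARD4 were no longer called there. Leaving out MG132 library 1 alone raised the count from 12 to 20, with 9 higher and 11 lower, while 29.9% of all rows were then called higher and 12.5% lower. Leaving out any other control or MG132 library gave 6 or 7. The MG132 calls of HMGCS1 and IDI1 were lost on leaving out any 1 control library or MG132 library 2 or 3, and under median-ratio scaling (limma adjusted p = 0.0676 and 0.0593). Of the genes that fell, TMEM97 lost its call in 10 of the 13 alternatives that gave it a value, and DHCR7 in 6 of 15. Median-ratio scaling moved the MG132 counts from 3 higher and 9 lower to 1 and 10, the correction for GC and length gave 4 and 4, and the same correction on transcripts over 500 nt gave 5 and 8. Over all rows, the shares called higher and lower were 3.58% and 9.63% under median-ratio scaling, 3.24% and 5.36% under the correction, 27.7% and 20.4% under the correction over 500 nt, and 3.36% and 6.16% without the 4 GC-shifted libraries. The part of the GC trend in the MG132 and reversine results was not tested beyond these refits.

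**Figure D4:**
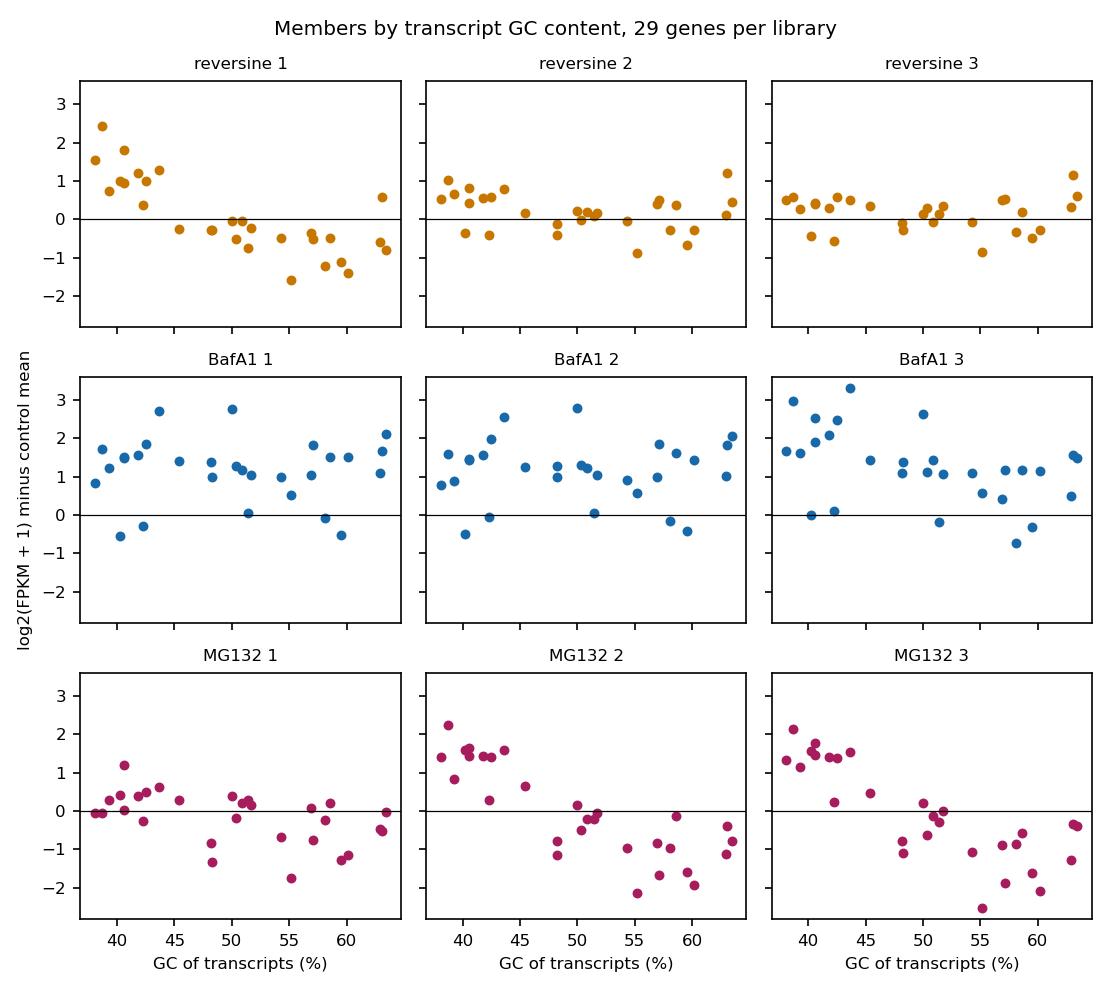
Each point is a gene, with the GC content of its transcripts in percent on the horizontal axis and log2(FPKM + 1) minus the control mean on the vertical axis, 1 panel per treated library. Points fall from left to right in reversine library 1 and MG132 libraries 2 and 3 (r of −0.79, −0.83 and −0.82), and lie mostly above 0 at all GC contents in the BafA1 panels.

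The count after BafA1 changed with the libraries kept and with the scaling. Leaving out any 1 of the 6 BafA1 and control libraries left 1 to 4 genes called, with 1 gene left on removing control library 1, control library 3 or BafA1 library 1, 2 on removing control library 2 or BafA1 library 2, and 4 on removing BafA1 library 3. Fitting these 2 groups alone left 3, and median-ratio scaling left 5 (HMGCS1, INSIG1, IDI1, TM7SF2 and STARD4), whereas the GC and length correction on transcripts over 500 nt called 23, all higher. Under that last setting 2.3% of all 16042 rows were called higher and 1.58% lower, and under median-ratio scaling 0.107% and 0.0293% of all rows. The median over the 30 genes stayed between 1.17 and 1.57 in the alternatives that kept all libraries of both groups.

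Treatments were also compared with each other, which tests the differences between them directly. BafA1 against MG132 gave 20 genes higher after BafA1 and none lower, against 6.37% and 4.49% of all rows. The largest differences were MVK (3.10 ± 0.35, limma adjusted p = 5.88e-04), DHCR7 (3.06 ± 0.36, adjusted p = 7.2e-04) and EBP (2.70 ± 0.23, adjusted p = 1.29e-04), and 13 of the 20 calls held in all alternatives that gave a value. STARD4 differed by 0.15 with a 95% interval from −0.34 to 0.64, so equality is not shown. BafA1 against reversine gave 14 genes higher and none lower, against 0.785% and 0.443% of all rows, led by INSIG1 (2.63 ± 0.12, limma adjusted p = 5.6e-05). Both NSDHL (0.96, limma adjusted p = 0.0186) and HSD17B7 (1.28, adjusted p = 0.0196) were among them. Of these 14 calls, only that of INSIG1 held in all 15 alternatives. NSDHL was called in 7 of the 15 and HSD17B7 in 8. MG132 against reversine gave none higher and 5 lower (TM7SF2, DHCR7, EBP, ACAT2 and FDPS), against 2.99% and 3.52% of all rows. TM7SF2 differed most clearly there (−1.40 ± 0.20, limma adjusted p = 0.00307). None of these 5 calls held in all alternatives, and that of TM7SF2 was lost with only the 2 groups.

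Other genes linked to the pathway were followed in 6 lists, chosen with earlier results of these data known. The shares of all rows beside their counts are therefore no independent test. Among 14 other reported SREBP targets, 5 rose after BafA1 (SCD, PNPLA3, ACSS2, FADS2 and RDH11) and none fell, against 0.202% and 0.0619% of all rows. After MG132, 2 of them rose (RDH11 and LPIN3) and 5 fell (FADS2, FADS1, MMAB, ACLY and PNPLA3), against 7.14% and 7.67% of all rows, and none passed after reversine. SCD, the stearoyl-CoA desaturase, averaged 647 ± 154 FPKM after BafA1 and 98.2 ± 2.58 in control (SD, n = 3), and rose by 2.68 (limma adjusted p = 0.00131). FADS2, a fatty acid desaturase, rose by 1.52 after BafA1 (limma adjusted p = 0.0191) and fell by 2.31 after MG132 (adjusted p = 1.23e-04). FADS1, its neighbour in polyunsaturated fatty acid synthesis, fell by 1.13 after MG132 (limma adjusted p = 0.00240).

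The branches that use isoprenoids for other products showed no call after BafA1. Of their 14 genes, 2 rose (DHDDS and RABGGTB) and 4 fell (ICMT, COQ2, PDSS1 and FNTB) after MG132, against 7.14% and 7.67% of all rows, and 2 fell after reversine, against 1.29%. ICMT, which methylates prenylated proteins, fell by 1.80 after MG132 (limma adjusted p = 3.7e-05) and by 0.99 after reversine (adjusted p = 0.00391). DHDDS, a dolichol synthesis enzyme, rose by 1.59 after MG132 (limma adjusted p = 1.83e-04), and COQ2, of coenzyme Q synthesis, fell by 1.30 after MG132 (adjusted p = 0.00255) and by 1.03 after reversine (adjusted p = 0.0306).

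No gene of the remaining 4 lists passed after BafA1. Their counts after MG132 and reversine stand against the same shares of all rows as above. Of 12 degradation and retention factors of SREBP control, 2 fell after MG132 (ERLIN1 and PAQR3) and 1 after reversine. ERLIN1, of the endoplasmic reticulum membrane, fell by 1.19 after MG132 (limma adjusted p = 3.87e-04) and by 0.93 after reversine (adjusted p = 0.00630). Of 4 electron donors of sterol enzymes, CYB5A, cytochrome b5, fell by 1.68 after MG132 (limma adjusted p = 8.22e-04). In the list of lipoprotein receptors and adaptors, LRP8, a receptor of the same family as VLDLR, fell after MG132 by 0.72 (limma adjusted p = 0.0384). Of 12 genes of sterol transfer and lysosomal sterol release, 3 rose after MG132, OSBPL2 by 1.22, OSBP by 0.78 and TMEM41B by 1.61 (limma adjusted p = 0.00375, 0.0138 and 0.0180), and OSBPL5 fell.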

How the data were processed

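The deposited table gives FPKM per gene for 12 libraries. Per the submitters' processing notes, the authors used RSEM 1.2.6 and Bowtie 1.0.0 with hg19 (GRCh37). Per the labels' protocols, libraries came from oligo(dT)-selected RNA, inserts of 150 to 350 nt, read for 50 nt. Total FPKM per library ran from 962891 to 2057717, which does not give the read depth behind a value. From these values, log2(FPKM + 1) was fitted with limma 3.58.1 (R 4.3.3, trended prior) in 1 model of 4 groups without covariates, on rows with at least 1 FPKM in 3 libraries, and p-values were adjusted by Benjamini-Hochberg over 30712 rows. GC and length came from GENCODE v29 transcripts (GRCh38), matched by transcript ID and averaged per row, for 25349 of them (82.5%) and 29 of the 30 genes. Tested on simulated data for BafA1 against control (29238 genes), the fit called 21% of genes changed by 1 log2 unit, 52% of those changed by 2, and 0.0344% of unchanged genes. The simulated noise was independent in each library, no library was GC-shifted, and reversine and MG132 had no changes. These rates may therefore not hold for the real libraries. At an unadjusted p under 0.05, 3631, 2187 and 12586 rows passed for reversine, BafA1 and MG132. Members and lists were chosen with earlier results of these data known. All 30 genes are named by pathway position; of each other list, at most 3 genes with the smallest adjusted p over the comparisons with control are named, and HSD17B7P2 and genes named only to spell out a count were chosen after their values were seen. The count of the list of lipoprotein receptors and adaptors after MG132 is not reported here. Alternatives changed the pseudocount (0.1), the filter (none, 5 FPKM), scaling, GC and length, the prior, the groups fitted and the libraries kept. Promoters are RefSeq, GRCh38.p14, of which no coordinate was joined to the table.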

Additional observations from a re-analysis of the deposited data

How the results depend on the processing

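For the comparisons of the 30 genes, the counts of calls moved by more than 1.5 times as follows. No direction of a called gene reversed, and the causes of these moves were not tested. Reversine against control (2 genes called) gave 0 with no filter, 1 with median-ratio scaling, 0 with the GC and length correction, 0 with only the 2 groups, and 6 with that correction on transcripts over 500 nt. BafA1 against control (11) gave 5 with median-ratio scaling, 7 with GC and length, 3 with only the 2 groups and 23 over 500 nt, and the other lists went from 5 to 2 under median-ratio scaling. MG132 against control (12) gave 7 with only the 2 groups and 5 without the 4 libraries whose values fall with GC. BafA1 against reversine (14) gave 6 with median-ratio scaling, 3 with GC and length and 1 with only the 2 groups. MG132 against reversine (5) gave 3 with GC and length, 0 with only the 2 groups and 10 over 500 nt. Leaving out each library in turn gave 0 to 1 genes for reversine, 1 to 4 for BafA1, 6 to 20 for MG132 (20 without MG132 library 1), 3 to 11 for BafA1 against reversine, 17 to 21 for BafA1 against MG132 and 2 to 14 for MG132 against reversine (14 without MG132 library 1). BafA1 against MG132 stayed within 15 to 25 genes in every alternative run. Median-ratio scaling moved the median of all rows from 0.05 to 0.19 for BafA1 against MG132 and from 0.01 to −0.23 for MG132 against reversine. The alternative without libraries in which values fall with GC could not be fitted over all rows, where the slope was below 0 in every reversine and BafA1 library, so the libraries left out were those with a falling slope over transcripts over 500 nt; this and the correction on such transcripts were chosen after seeing the data. No paired analysis was possible because the library numbers were given in accession order and pair nothing.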
